A study of Nematostella vectensis with 136 samples.

Results

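The genes described here are 40 of the 24384 genes in a count table from *Nematostella vectensis*, the starlet sea anemone, a cnidarian of which whole adults were sequenced, and NVE20499 and NVE4301 lead them. They were chosen by their measured levels, high in 4 particular libraries and low in most others. The 4 libraries are LD T1 replicate D, LD T5 replicates C and D and LD T6 replicate D. The LD arm held animals kept under light:dark conditions for 1 month, sampled every 4 h for 24 h, and then sampled for 44 h more after their light cycle was taken away. The DD arm held animals kept in constant darkness throughout and sampled at the same times. Each arm has 17 time points, T1 to T17, with 4 replicates lettered A to D at each. T1 to T6 are placed before removal of the light cycle and T7 to T17 after it, from that scheme; clock times, the light history before the month and the number of animals in a replicate are not given in the labels. P-values therefore measure the spread between these libraries, which may in part be technical.

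The choice worked on CPM, the count of a gene divided by the total of its library and scaled to a common total, and on log2(CPM + 2). Of the 24384 genes, 16315 had a median CPM under 10, and only these could be chosen. For each of them the lowest log2(CPM + 2) among the 4 libraries was set against the median over the 129 other libraries, and the 40 genes with the largest difference became the group. The difference ran from 2.38 to 9.48, with a median of 3.54. These levels are what chose the genes and are given as a description.

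The gene identifiers are not paired with names: 0 of them matched the table of 38762 RefSeq genes given for the organism, so no role, position or sequence can be attached to any of the 40, and no marker of a tissue or cell type could be checked. As background, most animals carry a circadian clock, a loop of transcription factors whose activity recurs daily and is set by light, and in cnidarians light reaches it without a central brain. RNA of a whole anemone mixes outer and inner epithelia, muscle, stinging cells, nerve cells, gland cells and germ cells. In such whole-animal RNA, more cells of a type and more RNA per cell cannot be told apart.

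The 136 libraries, 68 LD and 68 DD, had total counts from 2185 to 749294 with a median of 538017. Below 179339 lay 3 libraries, LD T14 replicate D, DD T1 replicate D and DD T4 replicate B, which held 7, 5 and 1 counts of the 40 genes and are left out throughout, leaving 67 LD and 66 DD libraries with totals of at least 207665. For both arms lane 5 carried T1 to T12, and lane 7 the later time points. Each pair of replicates of a group differed by more than sampling noise, with chi-square values per degree of freedom from 2.93 upwards.

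NVE20499 stood furthest out. It had 1435, 2359, 1426 and 1595 CPM in LD T1D, T5C, T5D and T6D, and a median of 0 CPM in the other libraries, 70 of 129 of which held no count of it. The other LD T5 replicates, A and B, held 2.42 and 0 CPM, so replicates of one time point differed widely. NVE4301 had 777, 1494, 752 and 1622 CPM in the same 4 libraries and a median of 1.54 CPM elsewhere.

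**Figure D1:**
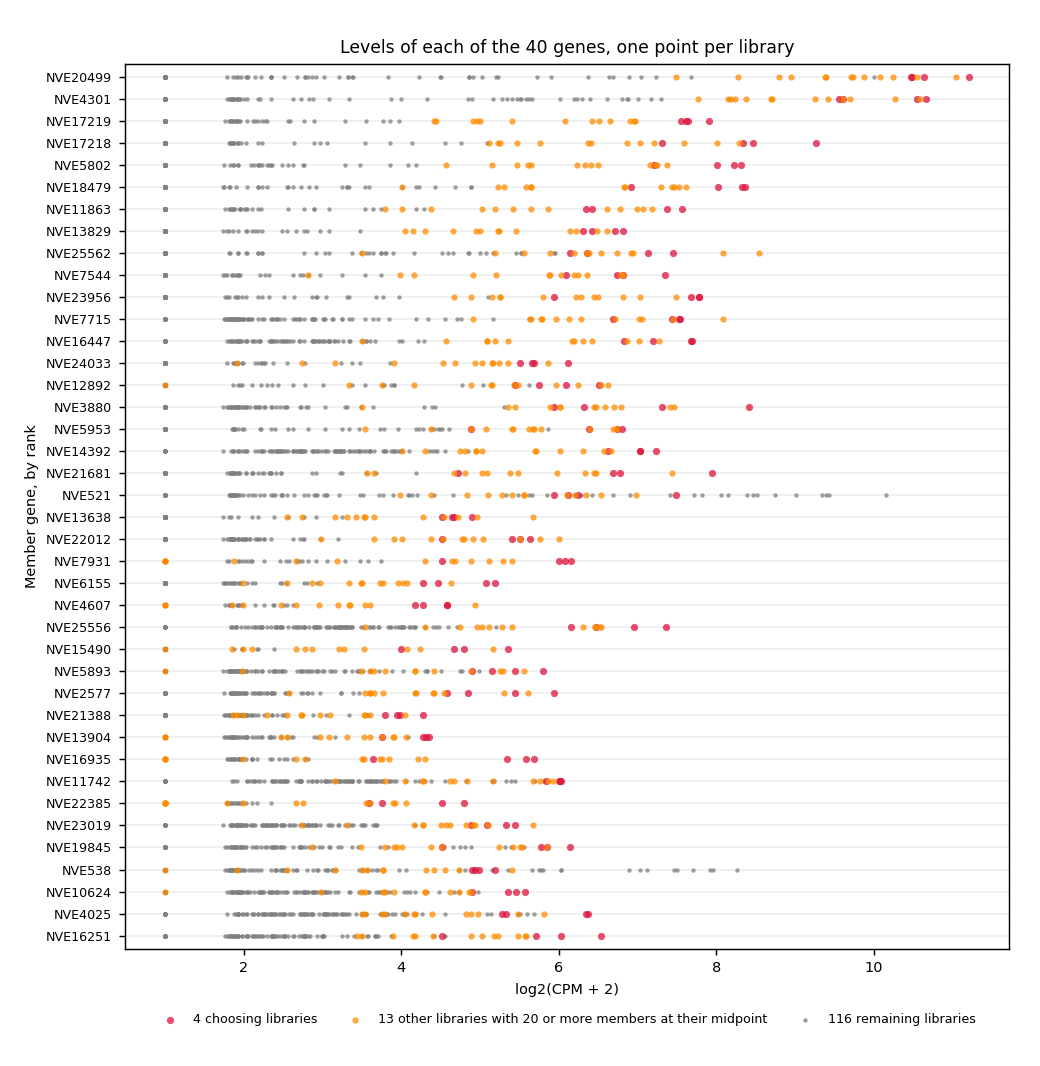
Level of each of the 40 genes, one row per gene in the order of the choice, as log2(CPM + 2) with one point per library. Red points are the 4 LD libraries that chose the genes, orange points 13 other libraries in which 20 or more of the genes stood at or above a midpoint, halfway between the gene's lowest level in the 4 libraries and its median elsewhere, and grey points the remaining 116 libraries; in NVE521 and NVE538 grey points reach further right than all red ones.

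Another 8 genes completed the first 10. NVE17219 had 198.5, 193.5, 186.3 and 238.3 CPM in LD T1D, T5C, T5D and T6D, and at most 123 CPM elsewhere. It was the only member whose lowest value in the 4 libraries was above its value in each other library. NVE17218, whose identifier differs by 1, had 156.7, 323, 352 and 614 CPM in the 4 and 309.9 CPM at its highest elsewhere, in DD T9B. Whether this pair neighbours each other or shares reads is not given in the sources used here, so both values are uncertain. NVE5802, NVE18479, NVE11863, NVE13829, NVE25562 and NVE7544 followed, with lowest values in the 4 libraries between 66.2 and 146.3 CPM and a median of 0 CPM elsewhere.

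Lower in the list the gap narrowed. The last members, NVE4025 and NVE16251, had differences of 2.41 and 2.38, and the genes just outside, NVE8085 and NVE20472, had 2.35 and 2.31. These 2 outside genes were unlike each other: over the 129 other libraries, the mean Pearson correlation of log2(CPM + 2) with the 40 genes was 0.64 for NVE20472 and 0.04 for NVE8085, which was highest at 265.5 CPM in LD T3B and reached at most 9.61 CPM in DD. A median of 0 CPM in the other libraries was found for 24 members, while the highest such median was 7.22 CPM, for NVE11742. The 4 libraries held between 3.67% and 43.8% of a member's counts, with a median of 26.6%, so that for each gene most counts came from other libraries.

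Among the 4 libraries the levels were not equal. LD T5C held the highest CPM for 17 of the 40 genes and LD T6D for 14, while LD T1D held the lowest for 21. Mean log2(CPM + 2) over the 40 genes was 6.48 in LD T5C, 6.45 in LD T6D, 6.20 in LD T5D and 5.79 in LD T1D, against a median of 1.74 over all libraries. When one of the 4 was left out and the choice was made on the other 3, between 28 and 38 of the 40 genes were chosen again, the fewest without LD T1D. The median difference of the genes so chosen, measured in the library that took no part, was 3.54 in LD T1D, 4.74 in LD T5C, 4.40 in LD T5D and 4.66 in LD T6D, against 0 for all genes that could be chosen. The 4 libraries were fixed with earlier results of these data known, so the left-out library was not independent of the choice. These differences are a description and no separate check of the group.

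High levels of the genes were not restricted to these 4 libraries or to the LD arm. For each gene the midpoint between its lowest level in the 4 libraries and its median elsewhere was taken, and a library was counted when 20 or more of the 40 genes stood at or above their midpoint. For weakly counted members this is a low bar that a few counts can meet. LD T11A held 12 counts of the 40 genes in all, and 3 genes stood at their midpoint there. There were 17 such libraries, 11 LD and 6 DD, 4 of them by the choice itself. Outside the 4, such libraries made up 7 of 63 in LD and 6 of 66 in DD. The working name of the group, a burst peaking in 4 LD libraries, thus does not describe where the genes were high, and the genes are called here by their leading members.

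**Figure D2:**
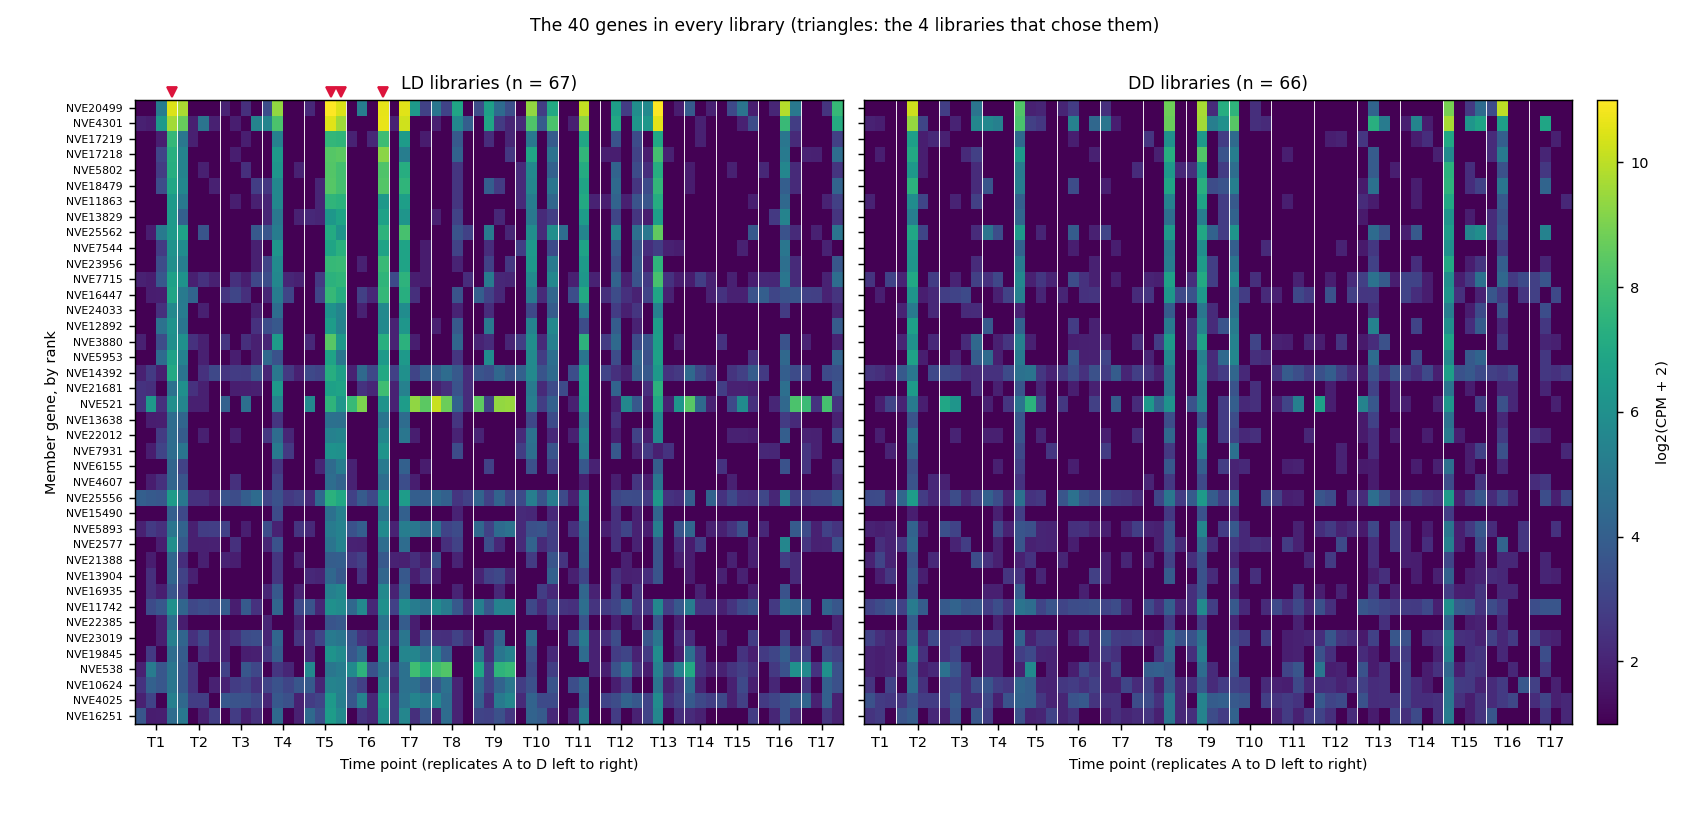
Level of the 40 genes in each library, as log2(CPM + 2), with LD libraries on the left and DD libraries on the right, ordered by time point and replicate letter; white lines separate time points and red triangles mark the 4 libraries that chose the genes. Bright columns stand in both panels, and they span nearly all rows, while NVE521 and NVE538 are also bright in further LD libraries around T6 to T9.

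In LD T13B the mean log2(CPM + 2) of the genes was 5.91, above the 5.79 of LD T1D, 1 of the 4. LD T7B followed at 5.72, LD T11C at 5.45, LD T2A at 4.77, LD T4B at 4.54, LD T10B at 4.52 and LD T16C at 3.74. In DD the genes averaged 5.56 in T9B, 5.52 in T15A, 5.38 in T2B, 4.85 in T8C, 4.20 in T5A and 4.10 in T10A. LD T10D, with 19 genes at their midpoint and a mean of 3.78, lay just under the count. Among all 133 libraries, 46 had none of the genes at the midpoint, 46 had 1 to 4 and 15 had 30 or more, with 2 between 20 and 29 and 6 between 10 and 19.

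Each such library stood almost alone in its group. Of the 34 groups of an arm and time point, 15 held 1 such library, LD T5 held 2, and 18 held none. They fell on 13 of the 17 time points and on all replicate letters, with 4 at A, 6 at B, 4 at C and 3 at D. In DD T2 the 4 libraries averaged 5.38 in replicate B and between 1.46 and 1.60 in the other replicates, and in LD T11 5.45 in replicate C and between 1.20 and 1.45 in the others. The totals of these libraries ran from 213651 to 688622, against 207665 to 749294 in the other libraries, and they held a count of 12421 to 17382 genes, against 12815 to 18060 elsewhere. LD T16C had the lowest total of the 17.

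**Figure D3:**
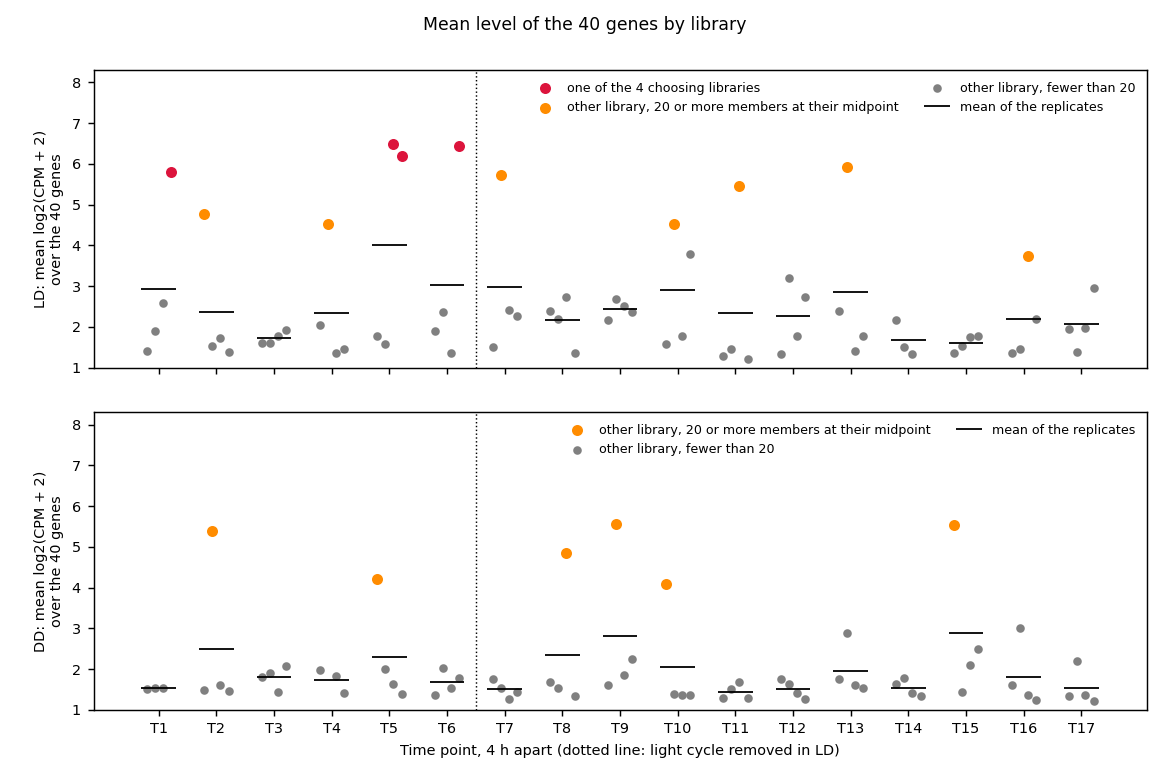
Mean log2(CPM + 2) over the 40 genes in each library by time point, with LD above and DD below. Red points are the 4 choosing libraries, orange points other libraries with 20 or more genes at their midpoint, grey points the remaining libraries and bars the mean of the replicates; high points appear in both arms before and after the dotted line, usually 1 per time point.

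All 40 genes reached their midpoint in DD, in 4 to 15 DD libraries each, though in weakly counted members a few counts can meet it. At least 1 other library at or above the lowest of the 4 was found for 39 of the 40. NVE20499 reached 2114 CPM in LD T13B and 1211 CPM in DD T2B, and NVE4301 1543 CPM in LD T13B and 833 CPM in DD T15A. NVE25562 was higher in LD T13B, at 371 CPM, than in any of the 4, where it had 69.0 to 172.8 CPM.

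The genes had similar profiles in the libraries where they stood high, but did not keep fixed proportions. Across the 40 genes, log2(CPM + 2) in each of the 13 further libraries was correlated with the mean of the 4. The correlation was 0.79 to 0.94 with a median of 0.89, against -0.23 to 0.82 in the remaining 116 libraries. The ratio of NVE4301 to NVE20499 CPM, uncorrected for gene length and so comparable only between libraries, ran from 0.23 to 1.87 over the 17 libraries with a median of 0.63. In DD T16B, NVE20499 had 1023 CPM and NVE4301 96.1 CPM, and 11 of the 40 genes stood at their midpoint. NVE15490, NVE22385, NVE4607 and 7 other members were at 0 CPM in at least 1 of the 13 further libraries. Together the 40 genes took between 0.119% and 0.804% of all counts in the 17 libraries, against 0.00168% to 0.165% in the other 116. The ranges thus overlapped, with LD T8A highest of the 116. In LD T8A, 8 of the 40 genes stood at their midpoint, and NVE521 alone had 1142 CPM.

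Over the 129 other libraries, pairs of the 40 genes had a median Pearson correlation of 0.61 over 780 pairs. The quartiles were 0.44 and 0.75 and the range was -0.01 to 0.95. These 129 libraries were not untouched by the choice, which used their median and the limit on median CPM. Pairs among 12680 other low-level genes, counted in at least 18 of those libraries, had a median of 0.02. The points share their libraries and low counts, and the values are a description. Without the 13 further libraries the median was 0.22 over 116 libraries, against 0.02 for the other pairs. NVE23956 and NVE5802 had the highest mean correlation with the other members, 0.73 and 0.72, and NVE538 and NVE521 the lowest, 0.21 and 0.32.

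Genes outside the 40 followed the same libraries. A mean correlation of at least 0.5 with the members was found for 47 other genes and for 31 of the members. The 4 outside genes most like the group over the 129 libraries were NVE21680, NVE21687, NVE21688 and NVE3704, with mean correlations of 0.67, 0.66, 0.66 and 0.66. NVE21680 had 98.9 to 164.8 CPM in LD T5C, T5D and T6D but 3.48 CPM in LD T1D, which kept it out. Its identifier and those of NVE21687 and NVE21688 lie 1, 6 and 7 from that of the member NVE21681; among the members themselves, 6 had an identifier within 20 of another member's. Above the limit on median CPM, NVE25705 and NVE9767 had the largest differences, 3.93 and 3.92, and reached 359 and 389 CPM in LD T7B.

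The libraries rich in the group were set beside those of another gene that came in bursts, NVE12125. That gene reached 100 CPM or more in 21 libraries, 17 LD and 4 DD. In these, 2 to 10 of the 40 genes stood at their midpoint. Thus 0 of the 21 had 20 or more, against 17 of all 133 libraries, or 13 of 129 outside the 4 choosing ones. Whether 0 of 21 departs from that share was not tested. In the 17 libraries where the 40 genes stood high, NVE12125 had at most 3.95 CPM. NVE521 and NVE538 were exceptions among the members, since their correlation with NVE12125 over the 129 libraries was 0.83 and 0.85, against -0.33 to 0.51 with a median of -0.18 for the other 38. The 13 libraries with the most NVE521 and the 15 with the most NVE538 were all among the 21.

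**Figure D4:**
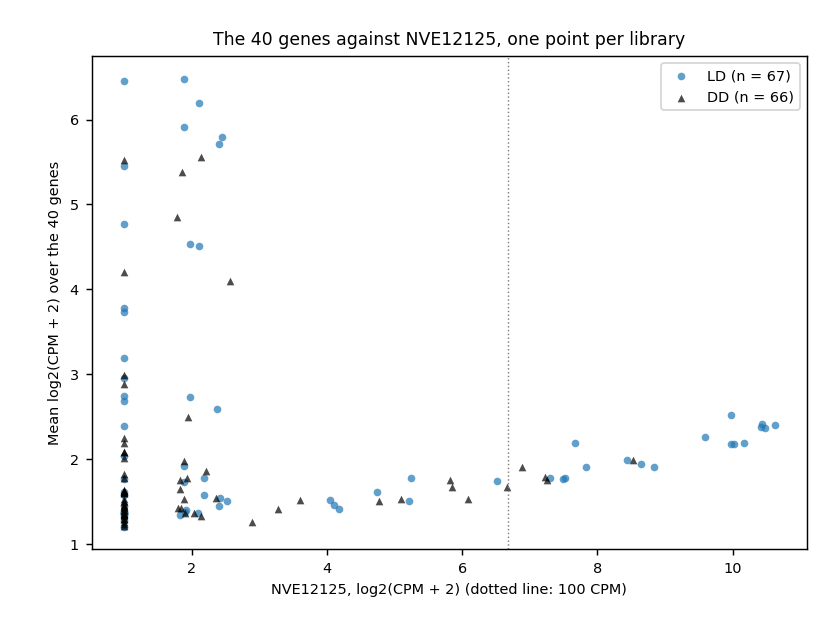
Mean log2(CPM + 2) of the 40 genes against log2(CPM + 2) of NVE12125, one point per library, circles LD and triangles DD. Many libraries were low in both, and none was high in both: where NVE12125 was above 100 CPM, right of the dotted line, the mean of the 40 genes stayed between 1.75 and 2.52.

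Whether the arms differed in the members after removal of the light cycle could be asked in T7 to T17, which hold none of the 4 choosing libraries. The T7 to T17 libraries were not untouched by the choice. They entered it through the median over the 129 other libraries and through the limit on median CPM. In those time points 5 of 43 LD libraries and 4 of 44 DD libraries had 20 or more of the genes at their midpoint. LD libraries averaged 2.33 ± 1.19 (SD, n = 43) in mean log2(CPM + 2) of the genes and DD libraries 1.94 ± 1.07 (SD, n = 44), a difference smaller than the spread between libraries. The LD mean was above the DD mean in 39 of the 40 genes, with a median difference of 0.26 on the log2(CPM + 2) scale, where 60.9% of the genes tested lay above 0 with a median of 0.05. Since the members vary together, these 39 are not separate observations.

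Of the 40 genes, 33 passed the filter on low counts and 3 of them rose in LD, by edgeR's quasi-likelihood test at an adjusted p of 0.05. Of all 10063 tested genes, 7.46% were called in either direction and 5.31% as higher in LD. NVE521 had 0, 15.0 and 1142 CPM in LD and 0, 1.69 and 101.5 CPM in DD as lowest, median and highest values, so the arms overlapped. It averaged 140.3 ± 248.9 CPM in LD (SD, n = 43) and 12.5 ± 24.2 CPM in DD (SD, n = 44), with a log2 difference of 3.18 ± 0.56 (SE) and an adjusted p of 0.000172 (edgeR; 5.47e-06 to 0.745 over 20 alternatives). Of the T7 to T17 libraries, 13 LD and 1 DD had NVE12125 at 100 CPM or more. The call of NVE521 was lost in 4 of the 20 alternatives. Without the libraries high in NVE12125, the log2 difference of NVE521 was 1.07 and its adjusted p was 0.745 with edgeR. In that fit 0.2% of all genes were called. Over all time points, the 13 libraries with the most NVE521 were all high in NVE12125. That fit thus took out the highest values of NVE521 by design and cannot decide whether the arms differ in it.

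NVE5893 had 0, 4.99 and 37.1 CPM in LD and 0, 1.61 and 45.3 CPM in DD as lowest, median and highest values; its highest DD library was T9B. The means were 8.67 ± 10.1 CPM in LD (SD, n = 43) and 3.90 ± 8.02 CPM in DD (SD, n = 44), a log2 difference of 1.36 ± 0.38 (SE) with an adjusted p of 0.0152 by edgeR's quasi-likelihood test (0.00357 to 0.839 over 20 alternatives). That call was lost in 7 of the 20 alternatives. Without LD T14A the log2 difference was 1.12 with an adjusted p of 0.158 (edgeR). Without the libraries high in NVE12125 they were 0.59 and 0.839 (edgeR). Without LD T14A, 3.87% of all genes were called.

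NVE20499 averaged 170 ± 438 CPM in LD (SD, n = 43) and 72.3 ± 216.04 CPM in DD (SD, n = 44). It was at 0 CPM in 13 of the LD libraries and 31 of the DD libraries, its median was 6.13 CPM in LD and 0 CPM in DD, and its highest values were 2114 CPM in LD T13B and 1023 CPM in DD T16B. Its adjusted p was 0.0343 (edgeR; 8.45e-18 to 1.0 over 20 alternatives), and no log2 difference is given because in 4 DD groups each library was at 0. The call was lost in 10 of the 20 alternatives. Among these were the edgeR fits without LD T13B, at an adjusted p of 0.073, without LD T7B, at 0.0592, and without LD T14A, at 0.54. It was 0.798 without the libraries high in NVE12125 (edgeR). NVE20499 stayed higher in LD in each of these fits.

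Lane by lane, T7 to T12 gave 1 call among the 33 genes, where 3.25% of all genes tested were called, 2.64% as higher in LD. NVE521 rose in LD at 192.2 ± 311 CPM (SD, n = 24), against 16.8 ± 28.1 CPM in DD (SD, n = 24), by a log2 difference of 2.50 ± 0.68 (SE) with an adjusted p of 0.0265 (edgeR; 0.0132 to 0.963 over 19 alternatives). That call was lost in 6 of the 19 alternatives. Without LD T8A the log2 difference was 2.27, the adjusted p was 0.0704 (edgeR), and 1.31% of all genes were called. The members' median difference of arm means was 0.47 on the log2(CPM + 2) scale, against 0.05 over the genes tested, and 3 of 24 LD libraries and 3 of 24 DD libraries had 20 or more genes at their midpoint.

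T13 to T17 gave 2 calls, where 1.39% of all genes tested were called, 1.07% as higher in LD. NVE521 averaged 74.9 ± 113 CPM in LD (SD, n = 19) and 7.45 ± 17.9 CPM in DD (SD, n = 20), a log2 difference of 4.00 ± 0.90 (SE) with an adjusted p of 0.0165 (edgeR; 0.00171 to 0.871 over 19 alternatives). NVE538 had 23.3 ± 33.96 CPM in LD (SD, n = 19) and 2.94 ± 4.33 CPM in DD (SD, n = 20), a log2 difference of 2.90 ± 0.77 (SE) with an adjusted p of 0.0345 (edgeR; 0.0119 to 0.837 over 19 alternatives). Each of these calls was lost in 7 of the 19 alternatives. Without LD T14A the log2 difference was 3.32 for NVE521 and 2.11 for NVE538. The adjusted p-values were then 0.243 and 0.51 (edgeR), and 0.075% of all genes were called. The median difference of the members was 0.08, against 0.05 over the genes tested, with 26 of 40 above 0.

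**Figure D5:**
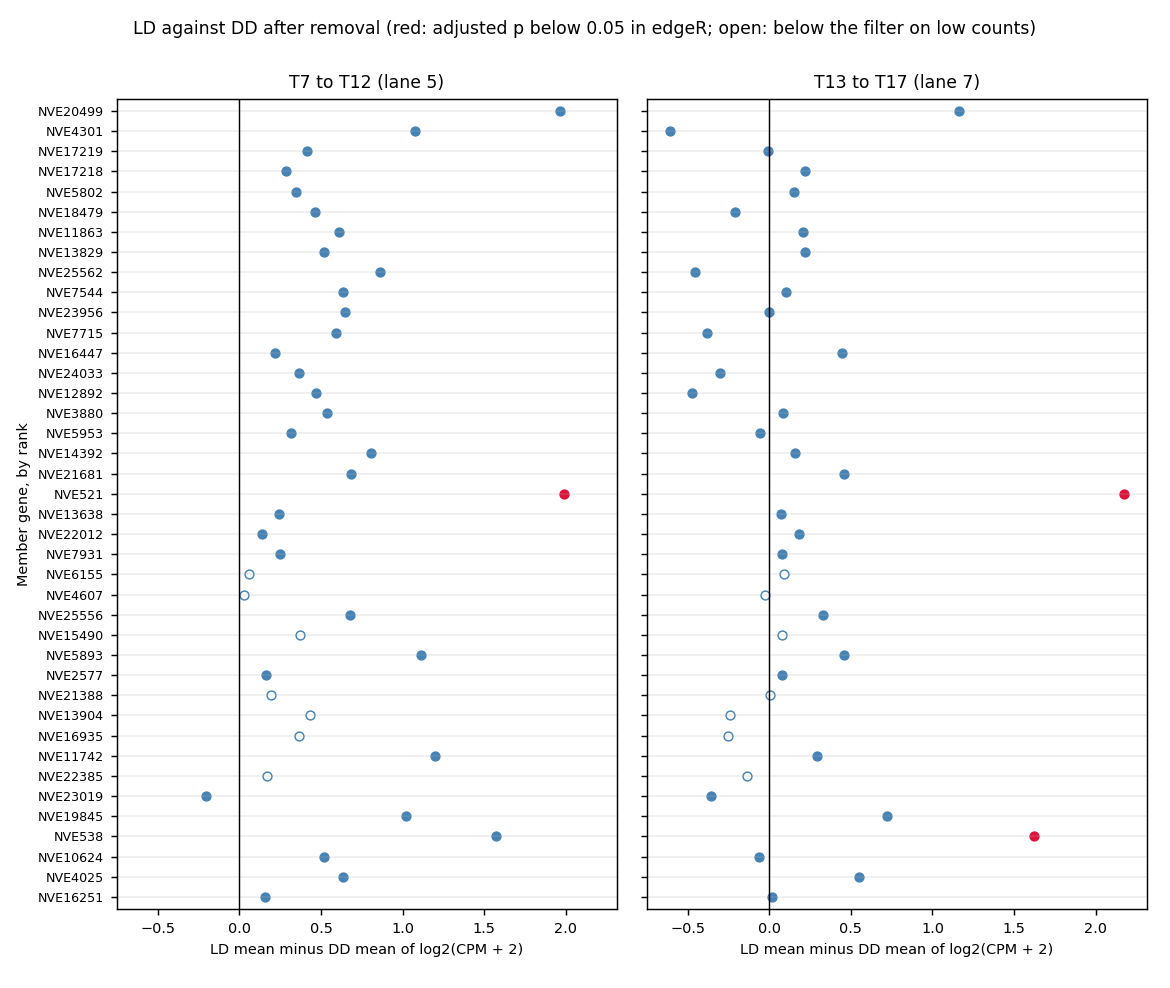
LD mean minus DD mean of log2(CPM + 2) for each of the 40 genes in T7 to T12 (left) and T13 to T17 (right), genes in the order of the choice. Red points passed an adjusted p of 0.05 in edgeR and open points fell below the filter on low counts; 39 of 40 points lie right of 0 on the left and 26 of 40 on the right, with NVE521 farthest in both.

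A 24 h component over T7 to T17 asks whether levels recurred daily once the cycle was gone. In LD, 1 of the 33 genes was called, where 6.42% of all genes tested were. NVE538, at 0, 5.39 and 306 CPM as lowest, median and highest of the 43 LD libraries, had a log2 amplitude of 1.92 ± 0.40 (SE) with a peak at 3.15 h after T1 or whole days later, and an adjusted p of 0.00742 (edgeR; 0.00249 to 0.894 over 20 alternatives). This call was lost in 6 of the 20 alternatives. Without LD T14A the amplitude was 1.28 with an adjusted p of 0.42 (edgeR). It was 1.88 with an adjusted p of 0.121 when a linear trend was in the model, and 0.67 with an adjusted p of 0.894 without the libraries high in NVE12125. The share of all genes called was 0.487%, 0.179% and 0.0182% in these fits. The 15 libraries with the most NVE538 over all time points were all high in NVE12125, so the last of these fits took out its highest values by design. The LD T8 group, 4 h into the second day, held its highest library, T8B.

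In DD, 0 of the 33 genes were called by edgeR, where 0.0596% of all genes tested were, and DESeq2 and limma-voom also called 0. The lowest adjusted p in edgeR was 0.146, for NVE20499. At an unadjusted p of 0.05, 20 of the 33 genes passed, against 9.06% of all genes tested, with peaks between 6.18 and 9.28 h after T1 or whole days later. The DD libraries of T7 to T17 with 20 or more genes at their midpoint lay at 4 h (T8C), 8 h (T9B and T15A) and 12 h (T10A) on that scale, and what these 4 libraries contribute to the 20 genes was not tested. In LD, 14 genes passed at an unadjusted p of 0.05, against 21.4% of all genes tested. The peaks of NVE11742, NVE538 and NVE521 lay between 2.34 and 4.06 h, and those of the others between 16.9 and 19.9 h. The members vary together, so the 20 genes in DD and the 14 in LD are not separate observations. Whether the arms differed in this component was not tested.

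The later day in DD was also set against the earlier one, in an arm whose light did not change. For DD animals at T7 to T12, set against DD animals at T1 to T6, 24 of the 40 genes passed the filter, and edgeR called 0 of them, where 2.5% of all 8503 genes tested were called; 0 passed at an unadjusted p of 0.05, against 16.8% of all genes tested. Limma-voom called 0 members, where it called 3.0% of all genes, and DESeq2 called 1, NVE4301, where it called 3.49%. NVE4301 had 0, 0 and 780 CPM as lowest, median and highest in DD T7 to T12 (n = 24), against 0, 1.93 and 682 CPM in DD T1 to T6 (n = 22). DESeq2 placed it lower in T7 to T12, though its mean was higher there, 69.3 ± 184.5 CPM against 53.4 ± 152.6 CPM (SD). In 2 of the 6 groups of DD T7 to T12 each library was at 0, so no log2 difference is given. The mean log2(CPM + 2) of the 40 genes was 1.95 ± 1.16 in T7 to T12 (SD, n = 24) and 1.95 ± 0.96 in T1 to T6 (SD, n = 22), with 3 and 2 libraries at 20 or more genes.

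During the light cycle itself, T1 to T6, the arms are given without a test, since the 4 choosing libraries are all LD. In mean log2(CPM + 2) of the genes, LD libraries averaged 2.73 ± 1.82 (SD, n = 24) and DD libraries 1.95 ± 0.96 (SD, n = 22). Without the 4 libraries, LD averaged 2.03 ± 0.95 (SD, n = 20). The median difference over the 40 genes was 0.74 with the 4 libraries and 0.09 without them, against 0.05 over the genes tested without them. Outside the 4, 2 LD libraries, T2A and T4B, and 2 DD libraries, T2B and T5A, had 20 or more of the genes at their midpoint.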

How the data were processed

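RNA of whole adults, preserved in RNAlater, was sequenced, per the labels' protocols. The deposited table, as the authors made it, holds raw whole-number counts, unnormalized, for 24384 genes in 136 libraries. Bowtie2 is listed, with neither role nor version, per the submitters' processing notes; the labels name the genome of Putnam et al. The counter, its strand setting and the gene models are not stated there, so near-identical or overlapping genes may share reads. Columns were matched to samples by titles.

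CPM used column totals and levels were log2(CPM + 2). Tests on counts used edgeR 4.0.16 (R 4.3.3; filterByExpr over groups, TMM factors, trended dispersion, glmQLFit and glmQLFTest) on the libraries of T7 to T17, or for the last comparison on DD T1 to T12, with 1 mean per arm and time point. Comparisons are contrasts of those means; 24 h components are least-squares cosine and sine terms, tested jointly. Benjamini-Hochberg adjustment ran over all genes tested, at a threshold of 0.05. Alternatives were DESeq2 1.42.0, limma-voom (limma 3.58.1), other scalings, filters, pseudocounts, letters as blocks and libraries left out. Named genes were the first 10, those next to the limit, called genes, and those most and least correlated. Members, lists and this rule were chosen with earlier results of these data known. Replicate letters were not used as pairs: deviations of same-lettered libraries had a median correlation of -0.001, and 4 of 43 pairs lay above 0.1.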

Additional observations from a re-analysis of the deposited data

Results flagged for a closer look

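The mean log2(CPM + 2) over the 40 genes was checked by Dixon's test in each of the 31 groups with 4 libraries. The test looks for a replicate far from the others, and with normally distributed values chance passes it in about 1 in 20 groups. That rate does not carry over to genes chosen as low in most libraries and high in a few, whose mean is skewed upwards. There were 8 groups that passed, 2 LD and 6 DD, each time with a high replicate. LD T11C stood at 5.45 and LD T2A at 4.77. In DD, T9B stood at 5.56, T2B at 5.38, T8C at 4.85 and T10A at 4.10, all libraries with 20 or more genes at their midpoint, while DD T13B at 2.89 and DD T17B at 2.19 had fewer. None of the 4 choosing libraries is among these 8. LD T5 held 2 of the 4, and 2 high replicates in a group hide each other from this test.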

How the results depend on the processing

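Low counts limit the tests: 7 members were never tested after T7, and with at least 10 counts in most libraries none was, so that alternative gave no value. Counts of members called are given here for LD against DD in T7 to T17 (3), T7 to T12 (1) and T13 to T17 (2), and for the 24 h component in LD (1). In that order edgeR called 7.46%, 3.25%, 1.39% and 6.42% of all genes tested. DESeq2 gave 7, 6, 3 and 1 members, with 9.19%, 4.54%, 1.08% and 5.58% of all genes, and limma-voom 0 in each, with 2.55%, 0.417%, 0.179% and 1.47%. With T7 counted before removal the first count was 1 (3.15% of genes). Leaving out a replicate letter or 1 library gave 0 to 5, 0 to 3, 0 to 2 and 0 to 2: without LD T14A 1, 1, 0 and 0 (3.87%, 3.25%, 0.075% and 0.487% of genes); without LD T8A 0 in T7 to T12; without DD T9B 5 and 3 in the first 2. Without the libraries high in NVE12125, an alternative added after seeing the data, each was 0, and 0.2%, 0%, 0% and 0.0182% of all genes were called. For NVE521 and NVE538 that alternative takes out their highest libraries by design. A linear trend left 0 for the 24 h component in LD (0.179% of genes). Between the days in DD, DESeq2 called 1. The letters do not pair the libraries, and with the letter as a replicate block the counts were 4, 1, 2 and 1, and 0 for both DD comparisons. Choosing the genes with other settings kept 28 to 40 of the 40. With other pseudocounts or TMM-scaled sizes 17 or 18 libraries stood out, and 23 or 15 when 10 or 30 genes at their midpoint were asked for in place of 20. The median correlation among members was 0.61, and 0.22 without the libraries rich in them; the arm difference in mean level over T1 to T6 ran from 0.31 to 1.12 without single letters, against 0.78. The causes were not tested.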
